A study of Mus musculus with 6 samples.

Results

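The transcripts described here are those of the growth hormone and insulin-like growth factor (IGF) axis, namely the ligand gene Igf1, the receptor genes Ghr and Igf1r, the receptor adaptor gene Irs1, and the genes of 6 binding proteins, Igfbp2 to Igfbp7. They were taken by symbol from the deposited gene count table. All 10 were found among the 34590 symbols listed, and all 10 were among the 17345 genes that passed the filter on low counts. The table holds 6 libraries from 3 hosts, mice 1 to 3. Each host was a WT female whose inguinal glands (gland number 4) had been cleared of their own epithelium. The left gland carried a graft of WT.EGFP+ epithelium and the right gland one of Adamts18-/-.EGFP+ epithelium, and since sides were not swapped, the effect of genotype and that of body side cannot be told apart. All donors carried an EGFP transgene driven by a chicken beta-actin promoter, the lines were kept on the C57BL/6JOlaHsd background, and the grafts came from 3 donors. The stroma of every gland, its fat cells, fibroblasts and vessels, belonged to the WT host in both groups. The age of the hosts at collection is not given in the sources used here.

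Growth hormone acts through its receptor, which signals by way of the kinase Jak2 and the transcription factor Stat5, and Igf1 is one of its best known target genes. The secreted IGF1 protein binds the receptor tyrosine kinase encoded by Igf1r, which recruits Irs1 and passes the signal to PI3K and Akt. Binding proteins hold IGF in the extracellular space and lengthen or limit its action. In the mammary gland, growth hormone is known to act mainly on the stroma, and stromal IGF1 on the ductal epithelium during puberty. Whether these transcripts differed between contralateral glands of the genotypes is the comparison that the paired design allows.

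Total counts ranged from 53875123 to 71595924. The targeted gene Adamts18 had 252, 608 and 383 reads in WT glands (mice 1, 2 and 3) and 144, 295 and 202 reads on the Adamts18-/- side. Its log2 fold change was -0.83 (standard error 0.19) and its CPM was lower in all 3 mice, although the groups overlapped (adjusted p = 0.987, edgeR's quasi-likelihood test). The deleted allele lacks only the exons of the catalytic site, the host stroma keeps an intact gene, and reads were counted over the whole gene, so remaining reads do not go against the labels. The labels call the RNA that of sorted GFP-positive mammary epithelial cells, but 9 adipocyte markers summed to between 9881 and 24167 CPM (read counts relative to the TMM-scaled library size), with Fabp4, a fatty acid carrier of fat cells, between 2142 and 5295 CPM. Markers of epithelium in general, 16 genes led by Krt19 and Krt18, summed to between 1192 and 2338 CPM, and 9 fibroblast markers to between 9346 and 13101 CPM. The libraries are therefore called glands, and in such bulk samples fewer cells of a type and less RNA per cell cannot be told apart. The B cell markers, 4 genes, summed to 519 CPM in the Adamts18-/- gland of mouse 3 and 114 CPM in its WT gland, against 8.07 to 13.1 CPM in the other 4 glands. Skeletal muscle markers, 7 genes, summed to 9336 and 9162 CPM in the Adamts18-/- glands of mice 1 and 2 and to between 244 and 2339 CPM in the other 4.

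The promoter windows of 4 members are shown because Igfbp2 had the largest fitted difference between genotypes, Igfbp3 the smallest p, and Ghr and Igfbp4 moved together between hosts. They come from RefSeq on GRCm38.p6 and run from 250 bases before to 50 after an annotated start site, and all 10 members matched the RefSeq table, with 12 windows. Capitals mark matches, on either strand, to TATAAA (the TATA box, found in 13.6% of all 32851 windows), the CCAAT box as named (in 37.4%), GGGCGG (the GC box, in 35.7%) and TTCNNNGAA (a letter pattern bound by STAT factors, 8.30%). The last of these has 0 matches in the 12 windows of the members.
Igfbp2 (chr1:72824230-72824529, plus strand): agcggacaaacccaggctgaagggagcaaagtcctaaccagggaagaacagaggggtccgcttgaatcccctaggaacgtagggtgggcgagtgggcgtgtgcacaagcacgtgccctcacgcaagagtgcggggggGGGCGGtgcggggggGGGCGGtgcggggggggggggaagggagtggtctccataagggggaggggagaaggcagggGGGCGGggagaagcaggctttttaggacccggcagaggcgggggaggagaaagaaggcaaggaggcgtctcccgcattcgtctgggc
Igfbp3 (chr11:7213874-7214173, minus strand): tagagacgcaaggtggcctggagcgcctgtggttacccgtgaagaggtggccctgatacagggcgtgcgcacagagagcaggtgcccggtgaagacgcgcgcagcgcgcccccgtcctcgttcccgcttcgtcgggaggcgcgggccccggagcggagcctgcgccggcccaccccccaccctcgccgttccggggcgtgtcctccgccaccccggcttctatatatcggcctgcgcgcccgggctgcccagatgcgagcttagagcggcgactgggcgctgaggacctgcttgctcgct
Igfbp4 (chr11:99040994-99041293, plus strand): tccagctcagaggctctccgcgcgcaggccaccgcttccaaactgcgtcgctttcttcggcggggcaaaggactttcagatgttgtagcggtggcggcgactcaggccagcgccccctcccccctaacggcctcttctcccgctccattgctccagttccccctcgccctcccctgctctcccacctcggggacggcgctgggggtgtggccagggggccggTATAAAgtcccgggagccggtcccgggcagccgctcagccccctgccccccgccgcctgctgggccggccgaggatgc
Ghr (chr15:3583303-3583602, minus strand): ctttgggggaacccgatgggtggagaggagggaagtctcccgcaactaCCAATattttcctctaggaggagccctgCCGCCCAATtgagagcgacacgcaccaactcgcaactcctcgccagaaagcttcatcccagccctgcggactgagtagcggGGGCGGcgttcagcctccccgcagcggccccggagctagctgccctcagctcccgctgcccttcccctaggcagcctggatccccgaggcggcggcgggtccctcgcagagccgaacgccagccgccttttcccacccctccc
Ghr and Igfbp2 each have a second window, not printed, which holds 1 TATA box and 1 CCAAT box for Ghr and no match for Igfbp2. The printed Igfbp2 window holds 3 GC boxes, between 113 and 32 bases before the start site. The Igfbp3 window holds no match to any of these motifs. The Igfbp4 window has a TATA box from 28 to 23 bases before the start, and the printed Ghr window has 2 CCAAT and 2 GC boxes, of which a CCAAT box and a GC box overlap. These matches describe letters and not binding. In the GENCODE M21 annotation (GRCm38) Igfbp2 (chr1:72824503-72852474, plus strand) and Igfbp5 (chr1:72857932-72874884, minus strand) are neighbours that point toward each other, Igfbp3 lies at chr11:7206086-7213923, Igfbp4 at chr11:99041244-99054392, Ghr at chr15:3317760-3583492 and Igf1 at chr10:87858265-87937042.

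Per kilobase of exon, the scale used here to compare different genes, Igfbp5 had the highest mean level of the 10 transcripts, 312 ± 106 CPM per kb (SD over the 6 glands). Igfbp7 followed with 292 ± 61.2 and Igfbp6 with 246 ± 72.9 CPM per kb. These 3 neighbours were not separated by their spread: Igfbp5 exceeded Igfbp7 in 4 of 6 glands and Igfbp7 exceeded Igfbp6 in 5 of 6. From there down the order Igfbp6, Igfbp4 (116 ± 31.7), Ghr (63.1 ± 18.5), Igfbp3 (39.1 ± 6.82), Igf1 (19.0 ± 3.71), Irs1 (15.3 ± 3.70) and Igfbp2 (2.33 ± 1.09 CPM per kb) held in each gland. Igf1r was lowest at 1.18 ± 0.204 CPM per kb and lay under Igfbp2 in 5 of 6 glands. By these lengths the growth hormone receptor transcript was 37.7 to 62.5 times as abundant as the IGF1 receptor transcript. Exon lengths came from GENCODE M21 (GRCm38), whereas the annotation used for counting is not given, so levels per kilobase depend on that choice.

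**Figure D1:**
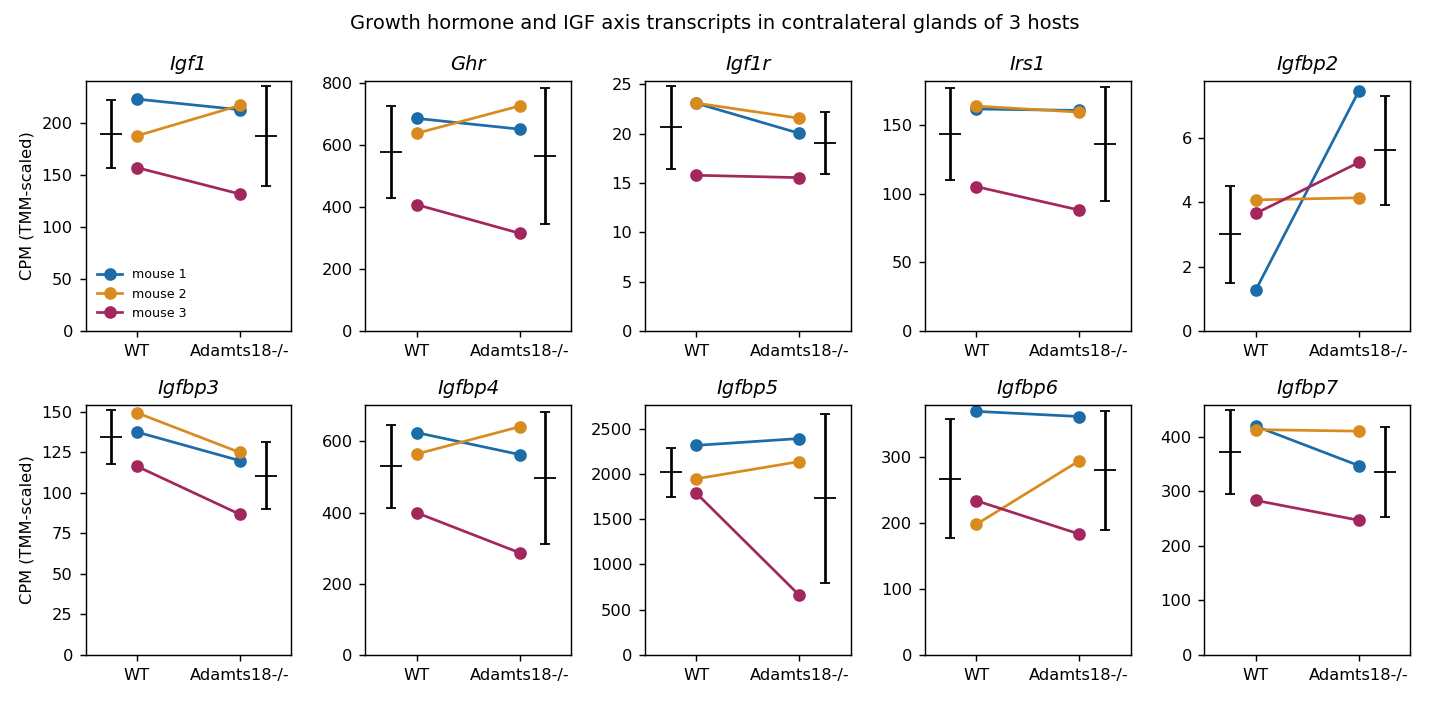
CPM (TMM-scaled, vertical axes from 0) of the 10 transcripts in WT and Adamts18-/- glands; points are single glands, lines join the contralateral glands of a host, and black marks give the group mean and SD (n = 3). In 8 of the panels both glands of mouse 3 lie under the other 4 glands, whereas the lines between genotypes run in mixed directions.

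For the ligand, the receptors and the adaptor, the values of the genotypes overlapped. Igf1 was at 222, 187 and 157 CPM on the WT side (mice 1, 2 and 3, the order kept for all values that follow) and at 212, 216 and 132 CPM in their Adamts18-/- glands. The groups overlapped, and the fitted log2 fold change (Adamts18-/- over WT) was -0.04, with a standard error of 0.11 and a 95% interval from -0.34 to 0.26. Ghr, which encodes the growth hormone receptor, was at 686, 638 and 408 CPM in WT and 652, 726 and 316 CPM in Adamts18-/- glands. Its log2 fold change was -0.09 (standard error 0.14, interval -0.45 to 0.28), and the groups overlapped here as well. Igf1r was at 23.1, 23.1 and 15.8 CPM against 20.0, 21.6 and 15.6 CPM, which fitted as -0.11 on the log2 scale (standard error 0.087, interval -0.34 to 0.12). Its value was lower in the Adamts18-/- gland of all 3 mice, by 0.20, 0.10 and 0.02 on the log2 scale, but the groups overlapped. Irs1, the adaptor that docks PI3K to the activated receptor, was at 161, 164 and 105 CPM in WT glands and 160, 159 and 88.0 CPM in Adamts18-/- glands. The log2 fold change was -0.10 (standard error 0.083, interval -0.32 to 0.12). In the GENCODE M21 annotation, 2822 bases of the exons of Irs1 overlap Gm9747 on the other strand, and the strand setting of the counting is not stated, so its level is less certain than the others.

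Among the binding proteins, Igfbp3, the main carrier of IGF1 in serum, had the most even difference. It was at 138, 149 and 116 CPM in WT glands and at 120, 125 and 86.8 CPM in the Adamts18-/- glands. Each Adamts18-/- gland lay under its contralateral WT gland, although the groups overlapped. The log2 fold change was -0.29 (standard error 0.078, interval -0.50 to -0.09), with -0.20, -0.26 and -0.42 in mice 1, 2 and 3. The fold change of 0.816 stayed just short of the limit of 0.8, and the adjusted p over all genes tested was 0.987 (edgeR's quasi-likelihood test, unadjusted p = 0.0148). Without mouse 1 the unadjusted edgeR p was 0.0629 (fold change 0.789), and without the host as a block it was 0.150. The same p was 0.0471 without mouse 2 and 0.0407 without mouse 3. DESeq2 gave an unadjusted p of 0.00626 (adjusted p = 0.441) and limma-voom one of 0.0167 (adjusted p = 0.930). With the libraries scaled to the pan-epithelial markers, which raised the median of all genes by 0.45, the log2 fold change of Igfbp3 was 0.15, or -0.29 relative to that median.

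Igfbp2 showed the largest fitted difference, which rested on mouse 1. It was low, with 1.29, 4.08 and 3.66 CPM (90, 250 and 206 reads) in WT glands and 7.46, 4.14 and 5.24 CPM (390, 251 and 322 reads) in Adamts18-/- glands. The groups did not overlap, but the gap between them in mouse 2 was 250 against 251 reads. The fitted log2 fold change was 0.98 (standard error 0.54, interval -0.43 to 2.40, adjusted p = 0.987 by edgeR's quasi-likelihood test). The single mice gave 2.50, 0.02 and 0.51. Without mouse 1 it was 0.27. DESeq2 put it past the thresholds on fold and unadjusted p (adjusted p = 0.9999), as did scaling to the pan-epithelial markers (log2 fold change 1.45, or 1.001 above the median of all genes, adjusted p = 0.00304 by edgeR's quasi-likelihood test). That scaling called 12.9% of all genes, 2200 of them higher, and put 381 under an adjusted p of 0.05, and DESeq2 called 3.67% of all genes. Over all alternatives the adjusted p of Igfbp2 ran from 0.00304 to 0.99997.

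Igfbp5, which encodes a binding protein tied to involution in the gland, was at 2316, 1947 and 1785 CPM in WT glands and 2391, 2137 and 659 CPM in Adamts18-/- glands. The Adamts18-/- gland of mouse 3 stood far under the other 5. The log2 fold change was -0.41 (standard error 0.36, interval -1.36 to 0.54), and without mouse 3 it was 0.10. Igfbp4, an inhibitory binding protein cleaved by the protease Pappa, was at 624, 564 and 399 CPM against 563, 641 and 287 CPM, and its fitted log2 difference was -0.15 (standard error 0.15). Igfbp6, whose product prefers IGF2, was at 370, 198 and 234 CPM in WT glands and 362, 294 and 183 CPM in Adamts18-/- glands, and its log2 difference was 0.06 (standard error 0.20). Igfbp7, a low-affinity relative secreted by vessels, shares 85 exonic bases with Polr2b on the other strand. It was at 419, 413 and 283 CPM against 347, 410 and 247 CPM, and fitted as -0.16 on the log2 scale (standard error 0.098). For these 3 genes the groups overlapped and the interval held 0, and among them only Igfbp7 had a negative difference in all 3 mice.

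Of the 10 transcripts, 0 passed the thresholds of the study (a fold change under 0.8 or over the inverse of 0.8, together with p under 0.05 before adjustment, by edgeR's quasi-likelihood test with the host as a block), against 3.01% of the 17345 genes tested. At an unadjusted p under 0.05 with no limit on the fold there was 1 of 10, Igfbp3, against 3.86% of all genes. By adjusted p under 0.05 there were 0 of 10 and 0 (0%) of all genes. DESeq2 put 71 of 17345 genes under this limit and the fit without mouse 3 put 268 of 17383 there, with no member among them. Pan-epithelial scaling put 381 of 17345 there, Igfbp2 among them. Igfbp2 alone, 1 of 10, had groups that did not overlap, which was so for 4.94% of all genes. The fitted value was negative for 8 of the 10, but for 4 without mouse 3, for 0 with pan-epithelial scaling and for 3 with scaling to the adipocyte markers. The median log2 fold change was -0.10 over the 10 transcripts and 0.00065 over all genes tested, of which 49.8% had a negative value. Within all 3 mice the direction was the same for 5 of the 10 (Igf1r, Irs1, Igfbp2, Igfbp3 and Igfbp7), and for 23.4% of all genes.

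**Figure D2:**
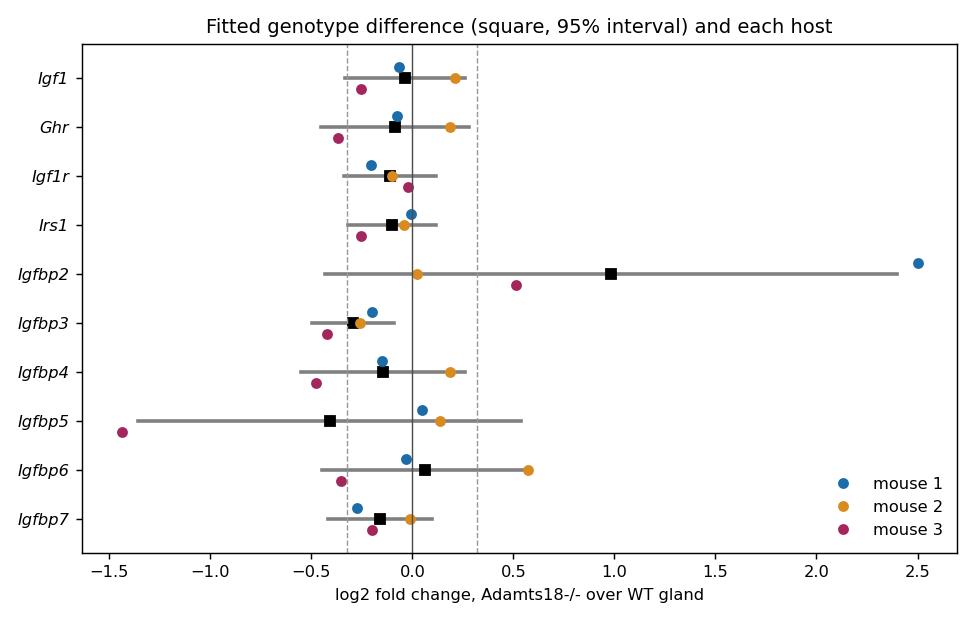
Log2 fold change of each transcript, Adamts18-/- over WT gland (horizontal axis); black squares are the fitted values, grey bars their 95% intervals, coloured points the 3 hosts, and dashed lines the fold changes of 0.8 and its inverse. The interval of Igfbp3 alone leaves out 0, and those of Igfbp2 and Igfbp5 are the widest, with mouse 1 at 2.50 and mouse 3 at -1.44.

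The host took more of the variance than the genotype did in 9 of the 10 transcripts, all but Igfbp2 (7.60% against 43.6%). This count was not made over all genes. With 3 hosts and 2 genotypes, the host term has 2 degrees of freedom and the genotype term 1. The host term therefore takes the larger share on average even where neither has an effect. The host took a median of 87.1% of the variance of log2 CPM over the 10 transcripts and the genotype 4.16%, while over all genes tested the medians were 67.3% and 5.98%. The share of the host was largest for Irs1 (95.7%), Ghr (92.6%) and Igf1r (92.4%). For 8 of the 10, namely all but Igfbp2 and Igfbp6, both glands of mouse 3 lay under the other 4, which held for 24.1% of all genes. Mean levels in mice 1, 2 and 3 were 669, 682 and 362 CPM for Ghr, 161, 161 and 96.6 CPM for Irs1, and 217, 202 and 144 CPM for Igf1. On the log2 scale, the difference of mouse 3 from the mean of mice 1 and 2 ran from -0.40 (Igfbp3) to -1.01 (Igfbp5) in these 8, with -0.91 for Ghr and -0.82 for Igfbp4. Its median difference was -0.56 over the 10 transcripts and 0.0028 over all genes tested.

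In edgeR's quasi-likelihood test of the host terms, 8 of the 10 had an unadjusted p under 0.05, all but Igfbp2 and Igfbp5, against 27.2% of all genes. The adjusted p was under 0.05 for 0 of the 10 and for 0.628% of all genes, and the smallest was that of Irs1 (adjusted p = 0.0592). With DESeq2's likelihood ratio test the same 8 had an adjusted p under 0.05, as did 20.4% of the 16336 genes to which DESeq2 gave one. Host, donor and experiment cannot be told apart, since each host is 1 pair of glands.

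The adipocyte and endothelial marker lists moved with these transcripts between hosts. The adipocyte list summed to 23379 and 20631 CPM in mouse 1 and to 22843 and 24167 CPM in mouse 2 (WT and Adamts18-/- gland), but to 12720 and 9881 CPM in mouse 3, where 8 of its 9 genes lay under the other 4 glands. The endothelial list, 7 genes, summed to between 785 and 963 CPM in mice 1 and 2 and to 696 and 597 CPM in mouse 3. The fibroblast list did not set mouse 3 apart (10313 and 11191 CPM, against 9346 to 13101 CPM in the other 4). None of the listed genes of these 3 cell types was at 0 in all glands. Other lists set mouse 3 apart in the other direction. The T cell list, 5 genes, summed to 92.8 and 240 CPM in mouse 3 (WT and Adamts18-/- gland) and to between 17.1 and 38.7 CPM in the other 4 glands. The B cell list, given above, was also highest in mouse 3. The part of any of these cell types in the host differences was not tested.

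Set against the adipocyte or endothelial list, several members were nearly level. Ghr read 29.4, 27.9 and 32.1 CPM for each 1000 CPM of the adipocyte list in WT glands, and 31.6, 30.1 and 32.0 in the Adamts18-/- glands. Its coefficient of variation over the 6 glands went from 29.3% in CPM to 5.46% per adipocyte list. For Igfbp4 it went from 27.3% to 8.39% and for Irs1 from 24.2% to 11.6% per adipocyte list. Igfbp7, Igf1r, Igfbp3 and Igf1 varied least per endothelial list, with coefficients of 4.44%, 6.20%, 7.995% and 11.05%, against 21.0%, 17.3%, 17.4% and 19.6% in CPM. Igfbp6 varied least per macrophage list (13.6%, against 29.6% in CPM), and Igfbp5 and Igfbp2 did not go under 26.1% and 42.3% with any list. For all 10 the coefficient was higher per pan-epithelial list than in CPM, from 27.6% for Igfbp3 to 55.3% for Igfbp2. These figures describe 6 glands and 8 lists, and the lists share hosts with the members. Coefficients per list were not taken for other genes. Both glands of mouse 3 lay under the other 4 for 24.1% of all genes, and such genes can also vary less per list that is low there.

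**Figure D3:**
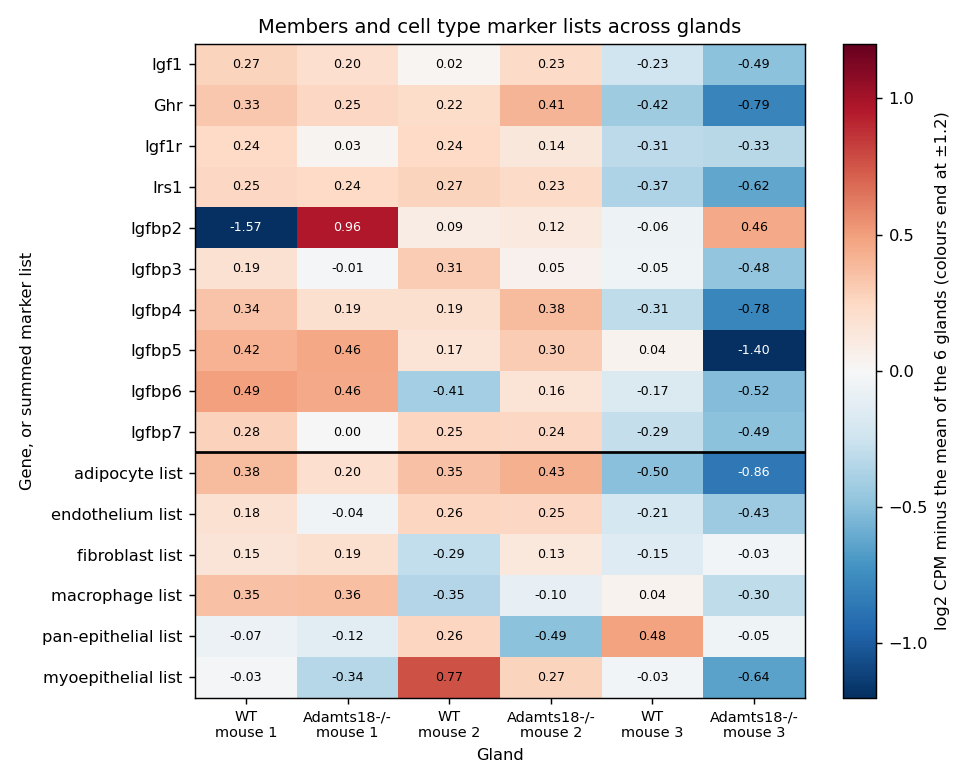
Log2 CPM of each transcript (above the line) and of 6 summed marker lists (below it) in the 6 glands, each row minus its own mean; red is above and blue below that mean. The Adamts18-/- gland of mouse 3 is the lowest for 9 of the 10 transcripts, all but Igfbp2, and for the adipocyte and endothelial lists, while the pan-epithelial list is highest in the WT gland of mouse 3.

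Some epithelial marker genes passed the thresholds on fold and unadjusted p between genotypes in these glands. By adjusted p under 0.05 (edgeR's quasi-likelihood test) 0 of the 17345 genes tested passed, these markers included. Of 16 pan-epithelial genes 6 were lower past the thresholds and 0 higher, with a median log2 fold change of -0.39, and of 9 myoepithelial genes 8 were lower (median -0.54). Of 8 hormone-sensing luminal genes, Prlr among them, 4 were lower (median -0.32), and of 7 secretory luminal genes tested 1 was (median -0.57). The share of all genes tested past the thresholds, in either direction, was 3.01%. Of the adipocyte, endothelial and fibroblast lists 0 genes passed, with medians of -0.14, -0.16 and -0.05. The part of cell composition in the value of Igfbp3 was not tested. With scaling to the adipocyte list its log2 fold change was -0.14 (unadjusted p = 0.315 by edgeR's quasi-likelihood test), or -0.29 relative to the median of all genes, which that scaling raised by 0.16.

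Taken per kilobase and summed, the 6 binding protein transcripts formed a pool of 1250, 1021 and 871 CPM per kb in WT glands and 1180, 1147 and 574 CPM per kb in Adamts18-/- glands. For each CPM per kb of Igf1 there were 55.7, 54.003 and 55.0 of the pool in WT glands and 55.0, 52.5 and 43.2 in Adamts18-/- glands. The low value was that of the Adamts18-/- gland of mouse 3. Igfbp5 made up 30.8%, 31.7% and 34.1% of the pool in WT glands and 33.7%, 31.0% and 19.1% in Adamts18-/- glands. Igfbp6 had a larger share in the Adamts18-/- gland of all 3 mice, by 0.988, 5.66 and 4.57 percentage points (exact sign-flip permutation test, two-sided, p = 0.25, adjusted p = 0.90 over 6 genes), and 0.25 is the smallest p that 3 pairs allow. The other 5 had p values from 0.5 to 1 in this exact test, and Igfbp2 stayed under 0.50% of the pool in each gland. Without division by length the mean share of Igfbp6 was 2.10 points higher on the Adamts18-/- side (p = 0.5 in the same exact test). Its direction was then not the same in all 3 mice.

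**Figure D4:**
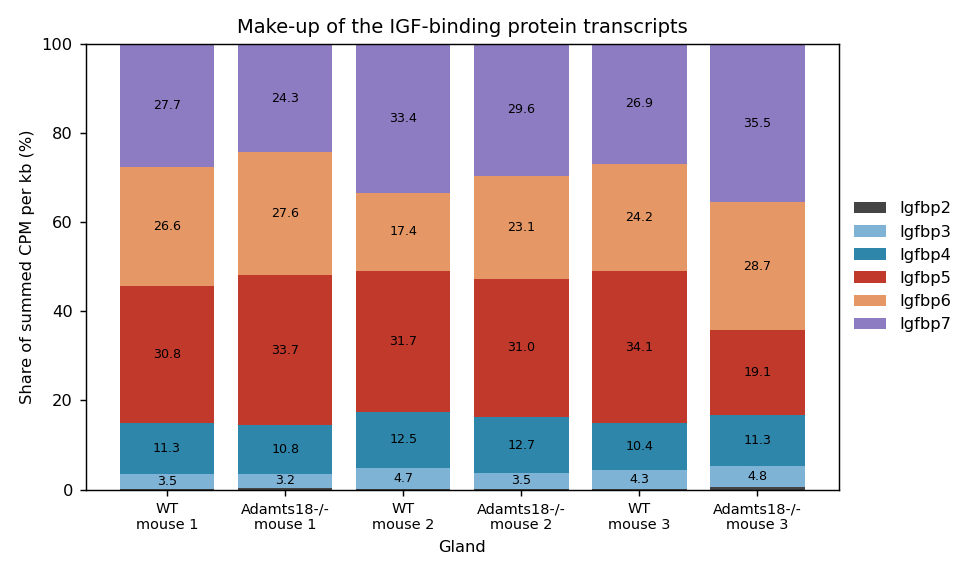
Share of each binding protein transcript in the summed CPM per kb of the 6 (vertical axis, percent) in each gland. Igfbp5, Igfbp6 and Igfbp7 make up most of each bar, and the share of Igfbp5 is 19.1% in the Adamts18-/- gland of mouse 3.

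Of 53 further genes of growth hormone, IGF and insulin receptor signaling listed by role, 46 passed the filter. Against 3.01% of all genes tested past the thresholds, 0 of the 46 were higher and 1 was lower. That gene was Prlr, the prolactin receptor, a marker of hormone-sensing luminal cells, at 334, 340 and 453 CPM in WT glands and 270, 207 and 272 CPM in Adamts18-/- glands. The groups did not overlap, which also held for other genes of the 46 and for 4.94% of all genes tested. The log2 fold change of Prlr was -0.59 (standard error 0.12, adjusted p = 0.987 by edgeR's quasi-likelihood test). With pan-epithelial scaling it no longer passed, and Socs3, a feedback inhibitor of Jak2, did. Prlr was lower in all 3 mice. It belongs to the hormone-sensing luminal list given above, whose part in its value was not tested. The median log2 fold change of the 46 genes was -0.03, and none of the 17 PI3K and Akt genes or the 7 genes of growth hormone receptor signaling passed the thresholds.

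The second ligand, Igf2, was at 15.5, 17.5 and 12.04 CPM in WT glands and 14.7, 17.4 and 9.34 CPM in Adamts18-/- glands (log2 fold change -0.15, standard error 0.12). The insulin receptor gene Insr fitted as -0.05 on the log2 scale (standard error 0.086), and Igf1r read 0.109 to 0.132 of the level of Insr per kilobase in the 6 glands. Igf2r, which clears IGF2, differed by -0.0029 (standard error 0.065) and ranged only from 112 to 124 CPM, hosts included. Irs2, the other main adaptor, had a log2 fold change of -0.04 (standard error 0.11) but stood at 36.5, 47.5 and 18.5 CPM in hosts 1, 2 and 3. Igfals, which completes the serum complex of IGF and Igfbp3, had one of -0.16 (standard error 0.10). Igfbp1, the remaining classical binding protein gene, had 0 reads in each gland, which allows at most 0.0574 CPM, for counting error only. Between hosts, 21 of the 46 genes had an unadjusted p under 0.05 (27.2% of all genes) and 0 an adjusted one (0.628% of all genes, edgeR's quasi-likelihood test). Both glands of mouse 3 lay under the other 4 for 23 of them, against 24.1% of all genes.

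Over the 6 glands, the genes whose log2 CPM ran most like that of each member were sought among 14709 genes with a mean of at least 1 CPM. For Ghr they were Tspan12, Lpl and Acat1, for Igf1 Dennd1a, Lama4 and Ak3, and for Irs1 Lrrc9, Atp1a4 and Bag4. For Igf1r they were Jakmip3, Sox18 and Smarcc2, and for Igfbp7 Plxna4, Rnf216 and Mical3. For Igfbp3 they were Wbp2, Papln and Rbpms, for Igfbp4 Sun1, 1810048J11Rik and Angptl2, and for Igfbp5 Gpr165, Ace and Aldh7a1. Pearson's r was at least 0.9948 in all of these. Igfbp2 had the weakest matches, Tmem68, Ola1 and Rpp30 (r from 0.979 to 0.984). With 6 glands from 3 hosts and so many candidates, such values are descriptions.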

How the data were processed

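RNA of 6 glands was sequenced with single-end reads of 85 bp. The authors deposited counts of whole reads per gene symbol, without normalization. The submitters' processing notes name bcl2fastq 2.18, TopHat2 2.0.11, featureCounts 1.6.2, edgeR and the build mm9. The annotation and strand setting are not given in the sources used here. Exon lengths came from GENCODE M21 (GRCm38).

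The whole table was fitted by the quasi-likelihood test of edgeR 4.0.16 under R 4.3.3 (TMM scaling, filterByExpr) taking the host as a block, with Benjamini-Hochberg adjustment over 17345 genes. Log2 CPM used a prior count of 2. The pairing comes from the host numbers in the titles and the series' design. Deviations from the group means correlated between contralateral glands at 0.512, 0.505 and 0.639. The correlation was not computed between glands of different hosts, so these values do not test the pairing. On simulated counts at 3 pairs (17137 genes) edgeR recovered 94.0% of log2 changes of 1 and 64.0% of 0.5 and called 3.92% of unchanged genes. Alternatives used DESeq2 1.42.0, limma-voom (limma 3.58.1), other scalings and filters, no block, other thresholds and each host left out. Scaling to adipocyte genes was chosen after seeing the data. The members and lists were chosen with earlier results of these data known. 

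The text names the members, pathway genes past the thresholds, 7 pathway genes chosen by role (Igf2, Insr, Igf2r, Irs2, Prlr, Igfals, Igfbp1), the 3 genes most correlated with each member (those of Igfbp6 are not reported here), the leading markers of a list and Adamts18.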

Additional observations from a re-analysis of the deposited data

How the results depend on the processing

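The count of members past the thresholds, 0, became 1 (Igfbp2) with DESeq2 (3.67% of all genes), 1 (Igfbp2) with pan-epithelial scaling (12.9%) and 1 (Igfbp3) with no limit on the fold (3.86%), and stayed 0 under the other alternatives, the fit with no replicate block and each host left out included. The count of pathway genes was 1 (Prlr), against 3.01% of all genes. It was 1 but of Socs3 with pan-epithelial scaling (12.9% of all genes) and 2 (Prlr and Socs3) with adipocyte scaling (3.55%). With a host left out the count was 2 without mouse 1 (Stc2 joined, 3.77% of all genes), 1 without mouse 2 (3.04%) and 2 without mouse 3 (Socs3 joined, 4.99%). The members called between hosts by adjusted p, 0, were 8 with DESeq2 (20.4% of the genes given an adjusted p), 1 (Irs1) with no filter (4.50% of all genes) and 4 with adipocyte scaling (78.6% of all genes). Without the replicate block no member or pathway call changed. The unadjusted edgeR p of Igfbp3 was 0.0148 with the replicate block and 0.150 without it.

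Log2 fold changes turned positive with pan-epithelial scaling, which raised all genes by 0.45, for Igf1 (0.41), Igf1r (0.34), Igfbp3 (0.15), Igfbp4 (0.30), Igfbp5 (0.030), Igfbp7 (0.29), Ghr (0.36) and Irs1 (0.35), and with adipocyte scaling, which raised them by 0.16, for Igf1 (0.12), Igf1r (0.045), Igfbp4 (0.0069), Ghr (0.069) and Irs1 (0.053). Relative to the median of all genes the members' median was -0.11 under both. With a host left out they ran from -0.16 to 0.079 for Igf1, -0.31 to 0.025 for Igfbp4, -0.70 to 0.098 for Igfbp5 and -0.22 to 0.064 for Ghr, positive in each case without mouse 3, and from -0.19 (without mouse 2) to 0.28 for Igfbp6.

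Changes in pool share, in percentage points, changed sign with a host left out for Igfbp3 (from -0.73 to 0.15), Igfbp4 (-0.18 to 0.54), Igfbp5 (-7.87 to 1.09) and Igfbp7 (-3.63 to 2.64). Without division by length that of Igfbp3 was 0.097, and that of Igfbp6 was 2.10 and no longer had the same direction in all 3 mice. The cause was not tested. Of simulated log2 changes of 0.5, 64.0% were recovered with 3 pairs at the thresholds on fold and unadjusted p. Smaller ones, the size of most members' differences, were not simulated.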
